A study of Homo sapiens with 12 samples.

Results

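The MYC, MAX and MXD network was followed as 10 genes named by their symbols (MYC, MYCL, MAX, MNT, MXI1, MXD1, MXD3, MXD4, MLX and MGA) among the 20345 rows of an RNA sequencing table from HGC-27 cells, an established human gastric cancer line. All 10 were in the table, and 9 of them reached a mean of 1 FPKM (fragments scaled to transcript length and to the mapped total) over the 12 libraries and were tested, with 11225 rows in all. MYCL stayed below that level and was described only. The 4 groups held 3 libraries each. They were WT cells left untreated, WT cells given GLUP, cells labelled TEAD4KO left untreated, and cells labelled TEAD4KO given GLUP. GLUP is a peptide made from the motif by which VGLL4 binds the transcription factor TEAD4. The untreated WT and TEAD4KO libraries were numbered 1 to 3 and the GLUP libraries 14 to 16. The labels give no genotype for the WT cells, whose titles begin with NC, and neither a dose nor a time. They also do not say whether the knockout line is 1 clone or whether the libraries came from separate cultures, so p-values measure the spread between these libraries, which may be technical.

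MYC is a transcription factor that binds DNA only after pairing with MAX, and the pair turns on genes for ribosome production, nucleotide synthesis and the cell cycle by binding the E-box, CACGTG. The MXD proteins, MXI1, MNT and MGA also pair with MAX, occupy the same DNA element and recruit corepressors, so that they compete with MYC for MAX and for its sites. MLX pairs with some MXD proteins, with MNT and with the glucose-sensing factors MLXIP and MLXIPL. High MYC is frequent in gastric cancer, and MYC is among the genes that YAP and TEAD factors are known to control.

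The 60-base windows below show where the element bound by the network and the element bound by TEAD factors occur upstream of members. RefSeq promoter windows on GRCh38.p14, from 250 bases before to 50 bases after a start site, were at hand for the 9 members other than MYC (14 windows). They were searched on both strands for CACGTG, which reads the same on both, and for the TEAD core GGAATG, which reads CATTCC on the other strand. The E-box was found in 3 of the 14 windows, those of MXD4, MNT and MLX. It lies in 7.26% of all 35116 windows in the table. In the lines that follow capitals mark the E-box.
MXD4, chr4:2262300-2262359, minus strand: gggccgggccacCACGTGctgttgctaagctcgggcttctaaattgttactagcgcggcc
MNT, chr17:2401221-2401280, minus strand: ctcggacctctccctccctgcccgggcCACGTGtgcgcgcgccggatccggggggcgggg
MLX, chr17:42567023-42567082, plus strand: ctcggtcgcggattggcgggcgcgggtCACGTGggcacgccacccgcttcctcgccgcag

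Counted from the start site, the first base of the E-box lay at -238 in MXD4, at -193 in MNT and at -50 in MLX. The TEAD core was found in 3 windows, of MXI1 at -201, of MGA at -124 and of MLX at -227, and it lies in 14.03% of all windows. MXI1 and MGA each have 3 windows, and 1 of them held the core. Capitals mark the core in the next lines. MLX was the only one of the 9 members with both elements. A match is a run of letters and not a measured binding site.
MXI1, chr10:110207377-110207436, plus strand: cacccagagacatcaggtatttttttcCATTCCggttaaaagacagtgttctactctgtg
MGA, chr15:41621073-41621132, plus strand: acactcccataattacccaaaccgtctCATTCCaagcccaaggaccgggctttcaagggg
MLX, chr17:42566850-42566909, plus strand: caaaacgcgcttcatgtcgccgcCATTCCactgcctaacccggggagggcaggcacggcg

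Several facts of the series touch the results. The transcript of the targeted gene, TEAD4, ran from 22.9 to 25.8 FPKM in the 6 WT libraries and from 26.0 to 30.1 FPKM in the 6 libraries labelled TEAD4KO. It was not lower under the knockout label, so these libraries are called by their label throughout, and directions below are drawn from the label. The TEAD4 difference was 0.17 on the log2 scale in untreated cells (limma, adjusted p = 0.135) and 0.23 in GLUP-treated cells (adjusted p = 0.0479, or 0.0516 when replicate numbers were blocked). The second call was lost in 14 of 22 alternatives, among them equal FPKM totals (0.12, adjusted p = 0.242) and GC and length correction (0.11, adjusted p = 0.271). The transcript says nothing of the protein. FPKM totals ran from 375361 to 384477 in the 6 WT libraries and from 397321 to 423757 in the 6 libraries labelled TEAD4KO, a ratio of means of 1.08. Changes between these labels also ran with transcript length. Spearman's rho over 11077 rows was -0.520 in untreated cells and -0.478 in GLUP-treated cells, a description across genes, which are not independent replicates. Replicates within a group correlated at 0.986 to 0.996. The summed leukocyte markers reached at most 1.00 FPKM in any library, with CD3E and HBB at 0 in all. The list for epithelial cancer cells held KRT8, KRT18, KRT19, EPCAM, CDH1 and VIM, and 3 of these 6 genes averaged at least 1 FPKM. The sum over all 6 was 1245 to 1378 FPKM in the WT libraries and 1356 to 1713 FPKM in those labelled TEAD4KO. It includes VIM, so it cannot be read as epithelial expression alone. All 5 genes of the fibroblast list averaged at least 1 FPKM, at a summed 366 to 419 FPKM in WT and 299 to 426 FPKM under the TEAD4KO label. The part of these markers in any result was not tested. In bulk RNA, fewer cells that express a gene and less RNA per cell cannot be told apart.

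MYC was by far the most abundant transcript of the network. FPKM is per length, so levels can be set side by side between genes. In untreated WT cells MYC stood at 108 ± 2.41 FPKM (SD, n = 3), MAX at 31.3 ± 2.46 and MLX at 29.3 ± 1.11. The ranges of MAX and MLX overlapped, and both lay far below MYC. MXD4 at 9.62 ± 0.318 and MGA at 9.54 ± 1.82 came next and overlapped each other. The remaining antagonists sat lower, with MNT at 5.46 ± 0.387, MXI1 at 4.89 ± 0.452, MXD1 at 4.26 ± 0.248 and MXD3 at 4.09 ± 0.328, each overlapping its neighbour in this order. MYCL, the MYC relative first found in lung cancer, was at 0.569 ± 0.0626 FPKM. In both groups labelled TEAD4KO the order of MAX and MLX was the other way round, with MLX at 33.5 ± 1.70 against MAX at 32.6 ± 0.792 FPKM in untreated cells, where the ranges overlapped, and at 33.6 ± 1.02 against 32.0 ± 0.475 FPKM with GLUP, where they did not.

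**Figure D1:**
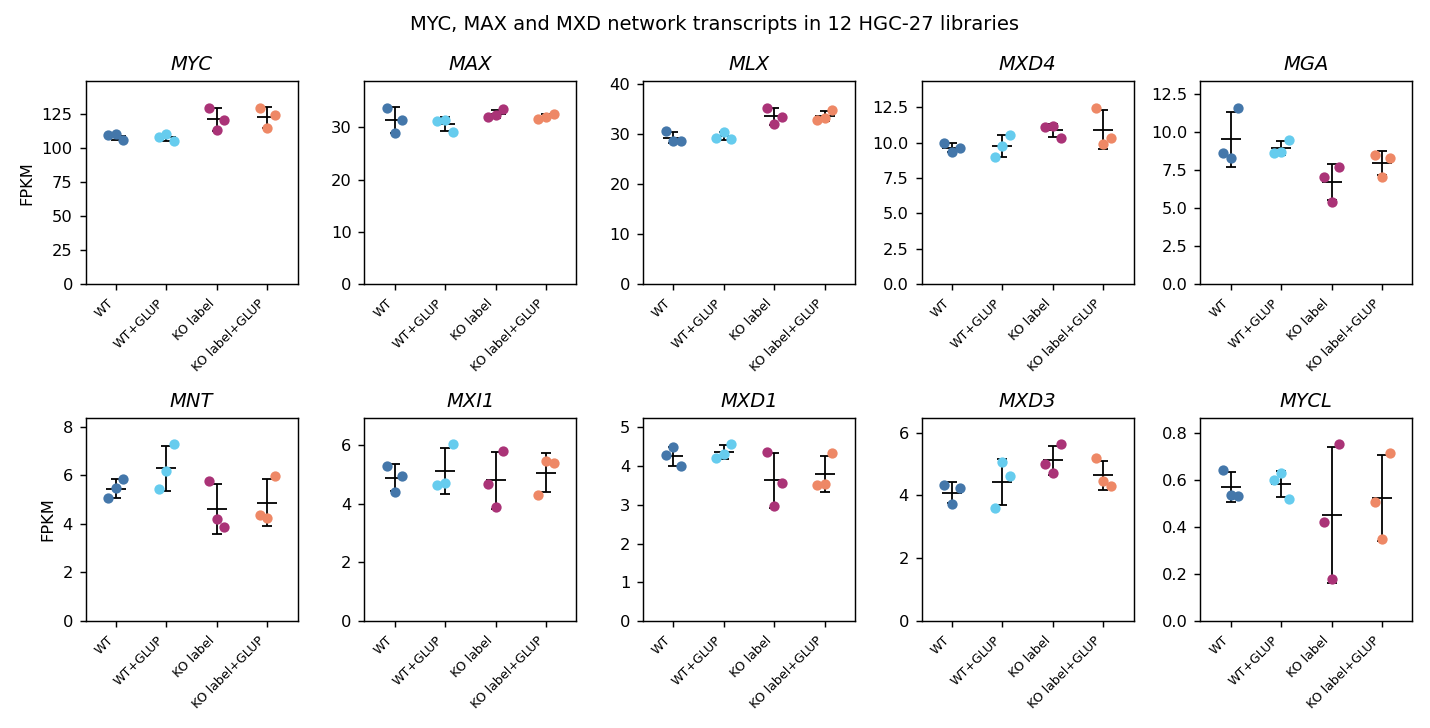
FPKM of each of the 10 genes (vertical axes, from 0, each with its own scale) in the 12 libraries, by group. Points are libraries, and bars give the mean and SD of 3. On this scale MYC and MLX in the libraries labelled TEAD4KO lie above every WT library, which does not hold with equal FPKM totals, and the groups with and without GLUP overlap for the genes tested.

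MYC made up most of the summed FPKM of the 8 genes whose proteins pair with MAX. Its share was 73.8 ± 1.56% in untreated WT cells, 73.2 ± 2.06% with GLUP, 76.9 ± 0.775% in untreated cells labelled TEAD4KO and 76.4 ± 0.511% in those cells with GLUP (SD, n = 3 each). The 6 antagonists together gave 37.8 ± 2.28, 38.9 ± 3.50, 35.8 ± 3.02 and 37.2 ± 2.24 FPKM in the same order. MYC exceeded MAX by a factor of 3.47 ± 0.303, 3.52 ± 0.0776, 3.71 ± 0.300 and 3.82 ± 0.261. These are transcript shares, given without a test, and say nothing of the amounts of protein.

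The first question was whether the peptide moved the network in WT cells, and no member passed the test. Untreated WT libraries 1, 2 and 3 held 109, 110 and 106 FPKM of MYC, and GLUP libraries 14, 15 and 16 held 108, 110 and 105 FPKM. Both sets of libraries cover the same range. The log2 fold change, here and below on the scale of log2(FPKM + 1), was -0.0080 ± 0.063 (SE), with a 95% confidence interval from -0.14 to 0.13. As a fold of FPKM + 1 the interval runs from 0.905 to 1.09. MAX, the shared partner, was at 33.8, 28.9 and 31.3 FPKM without and 31.2, 31.5 and 29.1 FPKM with GLUP, again in one range, for a log2 fold change of -0.031 ± 0.064. MLX stood at 30.6, 28.7 and 28.6 FPKM without and 29.3, 30.5 and 29.0 FPKM with the peptide (log2 fold change 0.015 ± 0.058).

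Among the antagonists in WT cells the widest difference was that of MNT, a broadly expressed repressor that pairs with MAX. It was at 5.06, 5.48 and 5.83 FPKM without and 5.42, 6.16 and 7.28 FPKM with GLUP. The highest value was GLUP library 16, and the groups overlapped. The log2 fold change of MNT was 0.17 ± 0.14 (limma, adjusted p = 0.999). The other antagonists spanned log2 fold changes from -0.068 for MGA to 0.085 for MXD3. By limma with Benjamini-Hochberg adjustment 0 of 9 members passed in WT cells, where 0.00891% of all rows passed, and 0 members had an unadjusted p under 0.05 (3.43% of rows). No member had groups that did not overlap, against 10.2% of rows with all GLUP libraries higher and 7.16% with all lower.

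In the libraries labelled TEAD4KO no member passed with GLUP either. MYC was at 129, 113 and 120 FPKM without and 129, 114 and 124 FPKM with GLUP, for a log2 fold change of 0.019 ± 0.063 and an interval from -0.12 to 0.15. MGA, the giant MAX partner that belongs to the PRC1.6 repressor complex, had the widest difference. It was at 7.09, 5.42 and 7.71 FPKM without and 8.51, 7.06 and 8.34 FPKM with GLUP. Library 2 was low among the untreated and library 15 low among the treated, and the groups overlapped. The log2 fold change of MGA was 0.22 ± 0.13 (limma, adjusted p = 0.870). MXD3 lay on the other side at -0.12 ± 0.11. In these cells 0 of 9 members passed by limma (0.0445% of rows passed), 0 had an unadjusted p under 0.05 (6.38% of rows) and 0 had groups without overlap (2.85% of rows higher and 3.98% lower).

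Whether the peptide acted differently under the 2 labels was tested as an interaction. By limma 0 of 9 members passed, as against 0.00891% of rows, with 0 at an unadjusted p under 0.05 (2.53% of rows). The estimates ranged from -0.20 for MXD3 to 0.29 ± 0.18 for MGA (adjusted p = 1.00). The unadjusted p of the MGA interaction depended on the setting (limma). It was 0.0412 with GC and length correction, 0.0437 with replicate numbers blocked and 0.0159 with both. With quantile normalization it was 0.0634, with median-ratio scaling 0.0736 and with equal FPKM totals 0.179. MGA passed in none of these after adjustment. For MYC the interaction was 0.027 with an interval from -0.16 to 0.22. Over both labels together 0 of 9 members passed for GLUP as well (0.258% of rows), with 0 at an unadjusted p under 0.05 (7.14% of rows). The MYC estimate there was 0.0053 with an interval from -0.090 to 0.10.

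**Figure D2:**
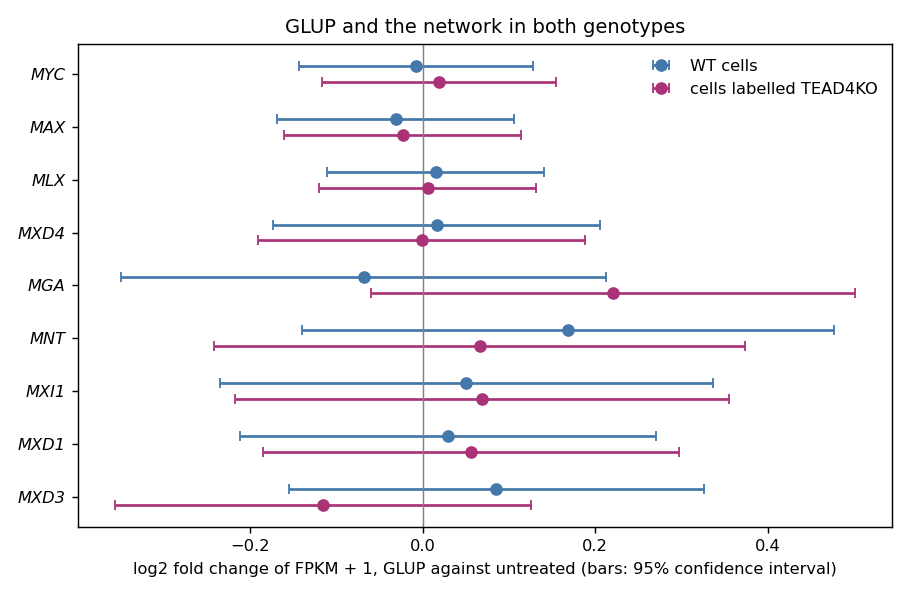
log2 fold change of FPKM + 1 between GLUP and untreated libraries (horizontal axis) for the 9 genes tested, in WT cells and in cells labelled TEAD4KO. Points are limma estimates and bars 95% confidence intervals, and every interval drawn includes 0.

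Between the labels the members spread more widely. MYC was higher in all 6 libraries labelled TEAD4KO, at 113 to 129 FPKM, than in all 6 WT libraries, at 105 to 110 FPKM, with a ratio of means of 1.12. MLX lay at 31.9 to 35.3 FPKM against 28.6 to 30.6 FPKM, with a ratio of 1.14. Both were thus separated by label in each library, as were 7.06% of all rows in this direction and 2.33% in the other. MGA was lower, at 5.42 to 8.51 FPKM against 8.34 to 11.6 FPKM with a ratio of 0.795, and its ranges touched only through 1 WT library and 2 libraries labelled TEAD4KO. The other 7 members overlapped between the 6 and 6 libraries.

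The ratio of mean FPKM totals between the labels was 1.08, beside 1.12 for MYC and 1.14 for MLX. When each library was scaled to the same FPKM total, an alternative added after seeing the data, MYC ran from 106 to 129 FPKM under the TEAD4KO label and from 111 to 114 FPKM in WT, and the ratio was 1.04. MLX then ran from 29.8 to 35.1 against 29.7 to 31.7 FPKM with a ratio of 1.06. Neither was separated any more, while MGA was then lower in all 6 libraries (5.07 to 8.23 against 8.62 to 12.2 FPKM; 8.20% of rows were separated in that direction). With median-ratio scaling, whose mean factors differed by a ratio of only 1.00, both MYC (116 to 130 against 102 to 112 FPKM) and MLX (32.6 to 33.9 against 28.1 to 30.5 FPKM) stayed separated, as did 5.35% of rows. Scaling to equal totals moved the median log2 difference of all rows from -0.0039 to -0.10 in GLUP-treated cells. The part of the totals in the result was not tested further.

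In untreated cells 0 of 9 members passed by limma, with 5.42% of rows passing, and 4 members had an unadjusted p under 0.05 (21.7% of rows). MGA came nearest on the side of lower values, with libraries 1, 2 and 3 at 7.09, 5.42 and 7.71 FPKM against 8.64, 8.34 and 11.6 FPKM in WT. WT library 3 was the highest and library 2 of the TEAD4KO label the lowest, and the groups did not overlap. The log2 fold change was -0.44 ± 0.13 (limma, adjusted p = 0.0651), and MGA passed at -0.46 with median-ratio scaling (adjusted p = 0.0490) and with quantile normalization (adjusted p = 0.0390). MLX was at 35.3, 31.9 and 33.3 FPKM against 30.6, 28.7 and 28.6 FPKM, which is 0.19 ± 0.058 on the log2 scale (adjusted p = 0.0794). MYC at 129, 113 and 120 against 109, 110 and 106 FPKM differed by 0.15 ± 0.063 (adjusted p = 0.174). MXD3, an antagonist best known from dividing cells, was at 4.99, 4.72 and 5.63 against 4.33, 3.72 and 4.22 FPKM, a difference of 0.26 ± 0.11 (adjusted p = 0.189). With MXD4, at 11.1, 11.1 and 10.3 against 9.94, 9.30 and 9.62 FPKM, there were 4 members higher without overlap (18.3% of rows) and 1 lower (7.47% of rows).

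In GLUP-treated cells 0 of 9 members passed as well (5.84% of rows), and 3 had an unadjusted p under 0.05 (23.9% of rows). When replicate numbers were blocked 1064 rows passed in place of 656, and still 0 members. MYC was at 129, 114 and 124 FPKM under the TEAD4KO label against 108, 110 and 105 FPKM in WT, with no overlap. The log2 fold change was 0.18 ± 0.063 (limma, adjusted p = 0.107). MLX at 32.8, 33.2 and 34.8 against 29.3, 30.5 and 29.0 FPKM gave 0.18 ± 0.058 (adjusted p = 0.0894). MNT, at 4.37, 4.25 and 5.99 against 5.42, 6.16 and 7.28 FPKM, overlapped through library 16, and its log2 fold change was -0.32 ± 0.14 (adjusted p = 0.198). MGA was at 8.51, 7.06 and 8.34 against 8.66, 8.73 and 9.50 FPKM, with a log2 fold change of -0.15 ± 0.13 (adjusted p = 0.494). Counting groups without overlap, MYC, MAX and MLX were higher (16.7% of rows) and MGA was lower (12.9% of rows).

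The mean of both differences, a comparison added after seeing the data, rests on 6 libraries a side. MYC and MLX rose and MGA fell under the TEAD4KO label, so that 3 of 9 members passed where 20.0% of all rows did (14.4% higher and 5.67% lower). An unadjusted p under 0.05 was found for 6 members and 34.8% of rows. The MYC difference was 0.17 ± 0.044 (limma, adjusted p = 0.0191) and that of MLX 0.18 ± 0.041 (adjusted p = 0.00837). MGA differed by -0.30 ± 0.092 (adjusted p = 0.0367). MNT at -0.27 ± 0.10 (adjusted p = 0.0803), MXD1 at -0.18 ± 0.079 (adjusted p = 0.124), MXD4 at 0.15 ± 0.062 (adjusted p = 0.104) and MXD3 at 0.16 ± 0.079 (adjusted p = 0.162) did not pass. MAX at 0.061 ± 0.045 and MXI1 at -0.024 ± 0.094 lay near 0. With equal FPKM totals MYC and MLX no longer passed, at 0.055 (adjusted p = 0.423) and 0.073 (adjusted p = 0.255), and the members that passed were MGA at -0.40, MNT at -0.36 and MXD1 at -0.27, all lower. In that setting 746 of 11231 rows passed as higher and 2248 as lower. Quantile normalization likewise took MYC to 0.062 (adjusted p = 0.384), while MLX passed at 0.13 (adjusted p = 0.0367), where 1259 rows passed as higher and 1248 as lower. Of the rows that passed as deposited, 71.7% were higher under the TEAD4KO label, against 60.9% with median-ratio scaling, 50.2% with quantile normalization and 24.9% with equal totals.

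Single libraries decided the calls of MYC and MGA. MYC did not pass without WT untreated library 3 (adjusted p = 0.0565), WT GLUP library 16 (0.0535) or TEAD4KO GLUP library 14 (0.0518), and its difference stayed between 0.14 and 0.19. MGA did not pass without WT untreated library 3, WT GLUP library 14, 15 or 16, TEAD4KO untreated library 2, or TEAD4KO GLUP library 14 or 15 (adjusted p from 0.0534 to 0.0944), with differences from -0.34 to -0.23 over all libraries left out in turn. MLX passed without each library in turn, at 0.16 to 0.20.

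**Figure D3:**
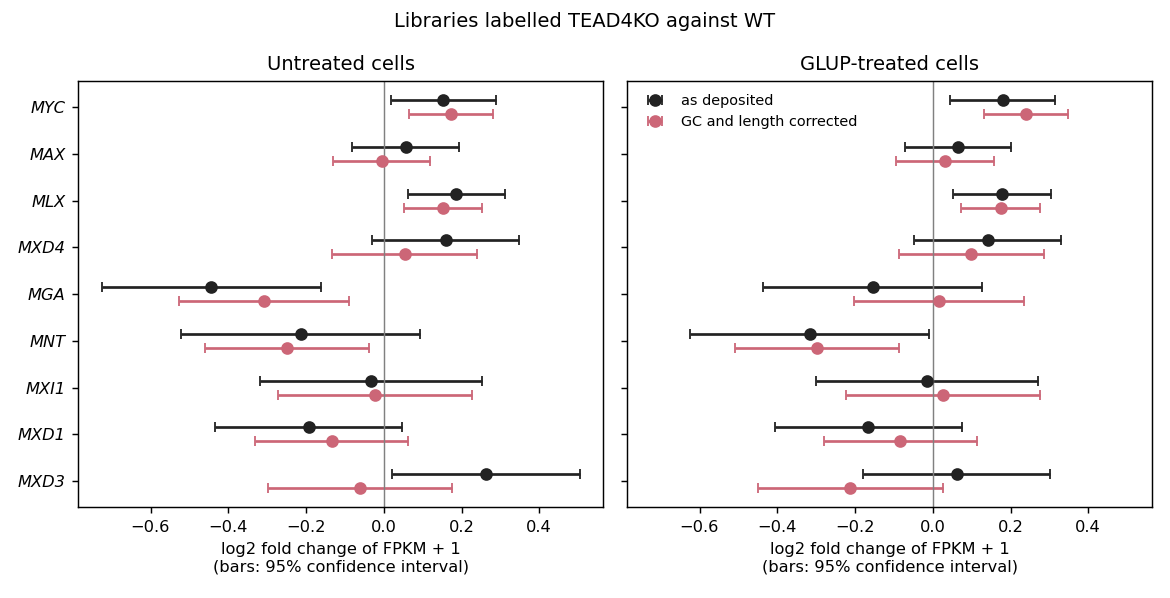
log2 fold change of FPKM + 1 between libraries labelled TEAD4KO and WT (horizontal axes) for the 9 genes tested, in untreated and in GLUP-treated cells. Points are limma estimates with 95% confidence intervals, from the deposited values and after correction for GC content and transcript length; MGA moves toward 0 with the correction, MXD3 crosses 0, and MYC stays above 0.

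Members of extreme transcript length differed in opposite directions. MGA has a canonical transcript of 12193 bases, longer than 98.0% of the rows with a length, and was lower under the TEAD4KO label. MXD3, with 1067 bases and longer than only 6.75% of rows, was higher in untreated cells. MYC at 3721 bases and MLX at 2360 bases lie in the middle of the range. Library 2 of the untreated TEAD4KO label had the strongest trend against long transcripts (Spearman's rho of its deviations with length -0.568) and the lowest MGA, and WT untreated library 3 with a rho of 0.442 had the highest MGA. The order did not hold throughout, since TEAD4KO GLUP library 14, with a rho of -0.391, had the highest MGA of its label at 8.51 FPKM, and WT GLUP library 16, with a rho of 0.474, was at 9.50 FPKM. The part of length in these differences was addressed only by the correction below.

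**Figure D4:**
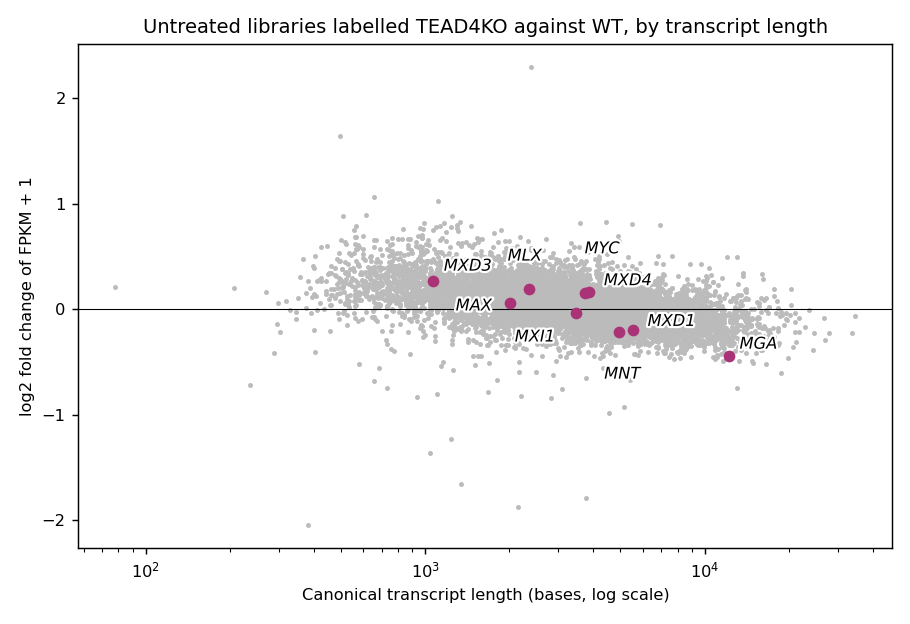
log2 fold change of FPKM + 1 between untreated libraries labelled TEAD4KO and WT (vertical axis) against canonical transcript length in bases (horizontal axis, log scale). Grey points are the tested rows with a length and coloured points the 9 genes, with MXD3 among the short transcripts and above 0 and MGA among the longest and below 0.

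After each library was corrected for GC content and length, MYC kept its difference. It was 0.17 ± 0.050 in untreated cells (limma, adjusted p = 0.0956) and 0.24 ± 0.050 in GLUP-treated cells, where it passed (adjusted p = 0.0243). Of 11225 rows 290 passed as higher and 136 as lower in GLUP-treated cells after correction. MYC ran from 119 to 133 FPKM in the libraries labelled TEAD4KO and from 101 to 111 FPKM in WT after correction, and was separated like 3.55% of rows. Corrected MLX values ran from 31.9 to 34.4 against 28.9 to 30.8 FPKM. MGA did not pass at -0.31 ± 0.10 in untreated cells (adjusted p = 0.133) and was at 0.015 ± 0.10 in GLUP-treated cells. MXD3 changed sign to -0.060 and -0.21. Over both treatments MYC at 0.21 (adjusted p = 0.00355) and MLX at 0.16 (adjusted p = 0.00812) passed, MNT at -0.27 (adjusted p = 0.0221) now passed too, and MGA at -0.15 (adjusted p = 0.183) did not. Of all 11225 rows 893 passed there as higher and 672 as lower. The correction also centred the log2 values of every library on a shared mean over the rows with a length. It was not combined with equal totals.

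Some member values share their position with other genes. On GRCh37, MXD3 (chr5:176728462-176739758, minus strand) overlaps PRELID1 on the other strand, which averaged 164 FPKM, and RAB24 on its own strand at 14.03 FPKM. MXD1 (chr2:70124820-70170077, plus strand) overlaps SNRNP27 on its own strand at 23.7 FPKM. MAX (chr14:65472892-65569413, minus strand) shares its interval with FNTB at 6.13 FPKM, and MLX (chr17:40719090-40725257, plus strand) with PSMC3IP at 11.3 FPKM, both on the other strand. Whether the counting used strand is not given in the sources used here, so the levels of MXD3, MAX and MLX are uncertain, that of MXD3 most, since PRELID1 was far more abundant. Strand would not separate SNRNP27 from MXD1 or RAB24 from MXD3, so the MXD1 level is uncertain either way. No overlapping row was found for MGA (chr15:41913332-42065279, plus strand).

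The rows whose log2(FPKM + 1) followed MYC most closely over the 12 libraries were MGAT1 (Pearson's r = 0.938), FBXL19 (0.937) and ENSG00000182500 (0.934). For MAX they were TSPAN7 (0.863), C12orf29 (0.823) and AURKA (0.808). These are the highest of 11225 rows, given as a description, and the libraries share their labels, totals and length trend.

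The network genes outside the set were few. MYCN averaged 0.0566 FPKM and MLXIPL 0.126 FPKM in untreated WT cells, and neither was tested. MLXIP, also called MondoA, was at 8.67 ± 0.464 FPKM in untreated WT cells, 9.19 ± 0.799 with GLUP, 7.33 ± 2.15 under the TEAD4KO label and 6.44 ± 1.56 there with GLUP. Over both treatments the MLXIP difference was -0.36 on the log2 scale (limma, adjusted p = 0.0441), a call that was lost in 12 of 22 alternatives, 10 of which left out a single library. MYCBP, a MYC-binding protein, was at 14.3 ± 1.30 FPKM in untreated WT cells and did not pass in any comparison. Of the target genes of MLX with MLXIP only ARRDC4 was measured here, at 6.04 ± 0.390 FPKM in untreated WT cells and 5.30 ± 0.465 with GLUP (log2 fold change -0.16, adjusted p = 0.999). PVT1 and TXNIP were not analysed here.

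The targets that MYC is known to activate, 35 genes of ribosome assembly, nucleotide and polyamine synthesis, chaperones and the cell cycle, included 0 that passed with GLUP by limma in WT cells (4 had an unadjusted p under 0.05, against 3.43% of all rows) and 0 in cells labelled TEAD4KO (3 had, against 6.38% of all rows). Of all rows 0.00891% and 0.0445% passed in these comparisons. Their log2 fold changes in WT cells had a median of -0.066, against 0.0088 for all rows, and 30 of 35 were below 0, against 5178 of 11225 rows. In cells labelled TEAD4KO the median was -0.033 against -0.017, and 24 of 35 were below 0. After GC and length correction these medians were -0.077 in WT cells and 0.0014 under the TEAD4KO label, against -0.0089 and -0.0011 for all rows. The list was chosen with results known, and these counts are a description. BOP1, a factor of large ribosomal subunit assembly, had the largest difference in WT cells, from 23.0 ± 1.73 to 18.1 ± 1.58 FPKM (log2 fold change -0.33 ± 0.079, adjusted p = 0.457). IPO4, a nuclear import receptor, had the largest under the TEAD4KO label, from 40.2 ± 1.32 to 28.7 ± 3.93 FPKM (-0.48 ± 0.11, adjusted p = 0.256). The 11 tested genes that MYC is known to repress likewise held 0 that passed with GLUP by limma (0 in WT cells and 1 under the TEAD4KO label had an unadjusted p under 0.05). NDRG1, a stress-responsive gene, had the widest difference in both, at -0.12 and -0.32. The corepressors, PRC1.6 genes, co-activators and turnover genes described below held 0 that passed with GLUP too, with 0, 1, 1 and 0 at an unadjusted p under 0.05 in WT cells and 1, 1, 0 and 1 under the TEAD4KO label, to be read beside the same shares of all rows.

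Between the labels, 0 of the 35 MYC-activated genes passed by limma in untreated cells (7 had an unadjusted p under 0.05), 3 rose in GLUP-treated cells and 6 rose over both treatments, with none falling. Of all rows 5.42% passed in untreated cells, and 21.7% had an unadjusted p under 0.05 there. In GLUP-treated cells 5.84% of all rows passed, 551 as higher and 105 as lower, and over both treatments 14.4% passed as higher and 5.67% as lower. With a library left out the 3 became 1 to 8. Medians of the 35 were 0.068, 0.069 and 0.10, against 0.023, -0.0039 and 0.0080 for all rows. After GC and length correction these medians were -0.0031, 0.091 and 0.040, against -0.0010, 0.0059 and 0.0012. With equal FPKM totals they were -0.042, -0.042 and -0.0071, against -0.073, -0.10 and -0.090 for all rows. The 3 were BOP1 at 0.48 ± 0.079 (adjusted p = 0.00417), EIF4A1, a translation initiation helicase, at 0.36 ± 0.089 (adjusted p = 0.0329) and NOP16, a nucleolar protein, at 0.27 ± 0.061 (adjusted p = 0.0210). BOP1 passed in all 22 alternatives, while EIF4A1 did not pass in 15 of them (8 with a library left out) and NOP16 in 8 (4 with a library left out). Over both treatments CDK4, a kinase of the cell cycle, joined them at 0.25 ± 0.053 (adjusted p = 0.00517), from 68.5 ± 3.98 to 81.3 ± 4.90 FPKM in untreated cells. After GC and length correction the count over both treatments was 6 higher and 5 lower, where 893 of 11225 rows were higher and 672 lower. With equal FPKM totals it was 3 higher and 6 lower, where 746 of 11231 rows were higher and 2248 lower. Of the 11 MYC-repressed genes 2 rose over both treatments, GAS1, a growth arrest protein, at 0.33 ± 0.082 (adjusted p = 0.0137) and GADD45A, a stress-induced gene, at 0.24 ± 0.058 (adjusted p = 0.0123), and with equal FPKM totals 0 of them passed.

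The corepressors used by MXD proteins and MNT moved in both directions. SAP30, a subunit of the SIN3 deacetylase complex, rose from 16.4 ± 1.01 to 24.3 ± 2.66 FPKM in untreated cells (log2 fold change 0.54 ± 0.10, limma, adjusted p = 0.00932) and from 15.3 ± 0.463 to 21.9 ± 3.16 FPKM in GLUP-treated cells (0.49 ± 0.10, adjusted p = 0.0134). It was the only one of 16 SIN3 and NCOR genes to pass in either, where 5.42% and 5.84% of all rows passed. Over both treatments SAP30 at 0.51 and BRMS1 at 0.20 rose, while SAP130 at -0.22, SIN3A, the scaffold of the complex, at -0.20 and RBBP4 at -0.18 fell. Of all rows 14.4% passed as higher and 5.67% as lower over both treatments. The 5 genes became 1 to 7 with a library left out. With equal FPKM totals 1 was higher and 8 were lower, where 746 of 11231 rows were higher and 2248 lower. Of 12 genes of the PRC1.6 complex, in which MGA sits, 0 passed between the labels by limma. An unadjusted p under 0.05 was found for 1 in untreated cells, 2 with GLUP and 2 over both treatments. Of all rows 5.42%, 5.84% and 20.0% passed in these comparisons, and 21.7%, 23.9% and 34.8% had an unadjusted p under 0.05. The widest PRC1.6 difference over both treatments was that of E2F6, its other DNA-binding subunit, at 0.34 ± 0.12 (limma, adjusted p = 0.0526).

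Among 16 co-activators and partners of MYC, BPTF, the large subunit of the NURF remodeller, fell from 26.1 ± 0.976 to 19.2 ± 2.56 FPKM in untreated cells (-0.43 ± 0.11, limma, adjusted p = 0.0411) and from 28.3 ± 2.90 to 18.5 ± 3.04 FPKM with GLUP (-0.59 ± 0.11, adjusted p = 0.00882). The call of BPTF in untreated cells was lost in 9 of 22 alternatives, 7 of which left out a single library. RUVBL2, a helicase of the TIP60 complex, differed by 0.31 ± 0.082 in GLUP-treated cells (adjusted p = 0.0411), and this call was lost in 16 of 22 alternatives, 9 of which left out a single library. Over both treatments 2 of the 16 rose and 4 fell, where 14.4% of all rows were higher and 5.67% lower, and those that fell included BPTF at -0.51, EP400 at -0.31 and TRRAP at -0.28. The 6 became 1 to 7 with a library left out. After GC and length correction 0 were higher and 3 lower, where 893 of 11225 rows were higher and 672 lower. Of 15 genes of MYC protein turnover, FBXL14, a ubiquitin ligase subunit, rose in untreated cells (0.48 ± 0.10, adjusted p = 0.0162) and USP28, a deubiquitinase, was lower in GLUP-treated cells (-0.47 ± 0.12, adjusted p = 0.0336), a call that was lost in 8 of 22 alternatives, 6 of which left out a single library. Over both treatments FBXL14 rose and USP28 at -0.37 and HUWE1, a large ubiquitin ligase, at -0.32 fell. After GC and length correction SAP30 and BPTF still passed in both treatments, FBXL14 did not pass in untreated cells (adjusted p = 0.131) and RUVBL2 did not pass in GLUP-treated cells (adjusted p = 0.185).

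**Figure D5:**
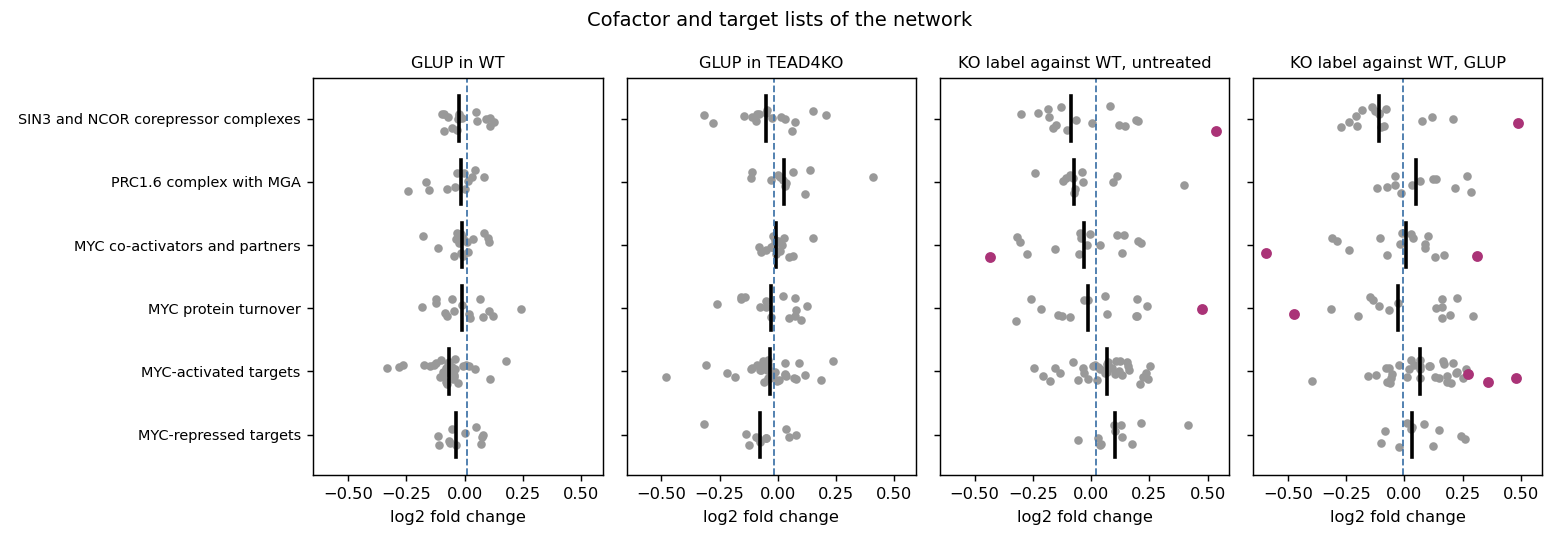
log2 fold change of FPKM + 1 (horizontal axes) for the genes of 6 lists around the network, in the comparisons named above each panel. Grey points did not pass, coloured points passed at an adjusted p under 0.05, black bars give each list's median and the dashed line the median of all tested rows; no point passed with GLUP in either kind of cell.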

How the data were processed

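RNA from 12 HGC-27 samples was sequenced, and the authors deposited the expression of each gene as FPKM in a single table with a column for every sample. The submitters' processing notes name hg19, HISAT2, Cufflinks and RSEM without versions. FPKM divides by gene length and mapped total, so shifts in a few abundant genes or in fragment length remain in it. Whole reads could not be recovered (the most common ratio between libraries held at most 0.906% of low genes), so depth is unknown and precision rests on replicates.

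Genes averaging 1 FPKM or more entered one model of 4 groups on log2(FPKM + 1), fitted with limma 3.58.1 in R 4.3.3 (lmFit, eBayes with an intensity trend, two-sided, Benjamini-Hochberg per comparison, call at an adjusted p under 0.05). The pseudocount of 1 understates changes of low genes. The fit was tested on simulated data, where the smallest planted changes, between the labels in untreated cells, were not recovered. Length and GC content, for 98.7% of tested rows, were those of GENCODE canonical transcripts on GRCh37, with splines of 5 degrees of freedom per library. Symbols were matched for 96.5% of rows. The members and lists were chosen with earlier results of these data known. Named were all members, TEAD4, the smallest lists in full, up to 4 passing genes of each other list or else its widest difference, and the 3 rows most like MYC and MAX. BRMS1, RBBP4, HUWE1, USP28 and E2F6 were named to complete small counts, after their values were seen. The values of 1 co-activator are not reported here. Deviations of same-numbered libraries from their group means were correlated across the labels. The values were 0.106, 0.152 and 0.336 for GLUP libraries 14 to 16, and -0.057, 0.203 and -0.015 for untreated libraries 1 to 3. All GLUP values lay above 0, but untreated number 2 exceeded GLUP numbers 14 and 15. These correlations do not settle whether libraries are paired by number. The main fit used no block, and the replicate block was run as an alternative.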

Additional observations from a re-analysis of the deposited data

How the results depend on the processing

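Pseudocount, filters, scaling, GC and length correction, trend, replicate block, a fold over 2 and single left-out libraries were varied, and equal FPKM totals and the comparison over both treatments were added after seeing the data. Of the members' values, 883 stayed on their side of 0 and of the threshold, 14 newly passed, 16 no longer passed and 68 turned sign. These counts leave out most members for GLUP over both labels and for the interaction. FPKM without depth and 3 libraries a group limit what small differences can show.

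Between the labels in untreated cells 1 member in place of 0 passed with median-ratio scaling, quantile normalization or the replicate block, and in GLUP-treated cells 1 with GC and length correction, with and without the block, and 0 to 1 with a library left out. Over both treatments 0 in place of 3 passed with a fold over 2, and 1 to 5 with a library left out (1 without WT untreated 3, WT GLUP 16 or TEAD4KO GLUP 14, and 5 without TEAD4KO untreated 1). The replicate block moved the adjusted p of MGA in untreated cells to 0.0183 and of MNT over both treatments to 0.0445. It changed no other member's call, and took that of TEAD4 in GLUP-treated cells.

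All rows that passed in untreated cells numbered 608, against 394 with no filter, 399 with median-ratio scaling, 603 with quantile normalization and 320 with equal totals. They numbered 849 with the replicate block, 196 with GC and length correction, 136 with the block added to it, 4 with a fold over 2 and 119 to 1189 with a library left out. In GLUP-treated cells they numbered 656, against 426 with the correction, 1064 with the block, 461 with both, 6 with a fold over 2 and 201 to 1948 with a library left out. Over both treatments they numbered 2247, against 6 with a fold over 2, 1565 with the correction, 2724 with the block and 2994 with equal totals. With a library left out they ran from 1404 without WT untreated 3 to 3314 without TEAD4KO GLUP 16. For GLUP they numbered 1 in WT (0 to 2), 5 under the TEAD4KO label (1 to 7) and 29 over both (1 to 54). Calls in untreated cells were 90.8% higher, against 70.7% with median-ratio, 59.2% with quantile, 55.6% with equal-total scaling and 63.3% with the correction. In GLUP-treated cells they were 84.0% higher, against 76.8%, 63.0%, 42.9% and 68.1%.

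Signs turned as follows, on the log2 scale, and the cause was not tested. For GLUP in WT, median-ratio scaling gave MXD4 -0.0064 and MLX -0.0086, quantile normalization MYC 0.021, MXD1 -0.0043 and MXD4 -0.0033, and the correction MXD1 -0.0096. For GLUP under the TEAD4KO label, median-ratio scaling gave MXD4 0.012, quantile normalization MAX 0.0035 and MXD4 0.0086, and the correction MAX 0.0039, MXD4 0.047 and TEAD4 0.021. Between the labels in untreated cells MAX was -0.012 with quantile normalization and -0.051 with equal totals, and the correction, with or without the block, gave MAX -0.0058 and MXD3 -0.060. In GLUP-treated cells MXI1 was 0.00044 with median-ratio and 0.024 with quantile scaling, equal totals gave MAX -0.047 and MXD3 -0.032, and the correction, with or without the block, MXI1 0.026, MXD3 -0.21 and MGA 0.015. Over both treatments MAX was -0.0010 with quantile normalization and -0.049 with equal totals, and the correction, with or without the block, gave MXI1 0.0021 and MXD3 -0.14. For GLUP over both labels the correction gave MXD3 0.043. In the interaction median-ratio scaling gave MXD4 0.019 and MLX 0.029, and quantile normalization MXD4 0.012 and MLX 0.0045. The correction, with or without the block, gave an interaction of 0.046 for MXD4 and 0.022 for MLX.

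With a library left out, GLUP in WT ran from -0.026 to 0.010 for MYC, -0.087 to 0.023 for MAX, -0.053 to 0.11 for MXI1, -0.0074 to 0.060 for MXD1, -0.035 to 0.068 for MXD4, -0.0055 to 0.046 for MLX and -0.15 to 0.069 for MGA. Under the TEAD4KO label it ran from -0.029 to 0.069 for MYC, -0.066 to 0.21 for MNT, -0.047 to 0.19 for MXI1, -0.051 to 0.17 for MXD1, -0.094 to 0.060 for MXD4, -0.028 to 0.043 for MLX and -0.072 to 0.012 for TEAD4. Between the labels MXI1 ran from -0.16 to 0.083 in untreated cells, -0.070 to 0.089 with GLUP and -0.085 to 0.034 over both treatments, and MXD3 with GLUP from -0.051 to 0.15.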
